A study of Drosophila melanogaster with 3 samples.

Results

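The 10 genes described here encode the *Drosophila* nuclear receptors Hr78, Hr96, ERR, svp, tll, dsf, Hr83, eg, kni and knrl, out of 21 nuclear receptor genes considered and 13945 protein-coding genes in the annotation. Each gene was taken by its symbol, with its annotated gene body and 5 kb either side as its window, and peak summits of Smox-GFP chromatin immunoprecipitation (ChIP-seq) were located in that window. The data comprised 1 group of 3 biological replicates: whole white prepupae, which have just formed the puparium, of a transgenic line in which Smox carries GFP at its C terminus, immunoprecipitated with an antibody against GFP. Whole animals were used and both sexes were pooled, so values of single tissues and of single sexes were not measured. Smox is the fly SMAD protein that Activin-type TGF-beta receptors phosphorylate. No untreated or mutant group was analysed, so the values are descriptions of 1 condition.

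Nuclear receptors are transcription factors with a zinc-finger DNA-binding domain and, in most members, a ligand-binding domain. Several of the fly's receptors drive the ecdysone cascade that starts metamorphosis. Most of the 10 genes here are known for other roles: Hr96 in lipid and toxin handling, ERR in carbohydrate metabolism, svp, dsf and eg in neurons, and tll and kni in dividing the early embryo along its axis. Hr78 is an orphan receptor needed for metamorphosis, Hr83 is a little-studied relative of the tll and dsf class, and kni, knrl and eg form a family that lacks a ligand-binding domain.

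The authors deposited a list of 30000 regions for each replicate, a list of 30000 regions for the pooled replicates, and a thresholded list of 6622 peaks derived from them. A region's rank is its place by peak score within its own list, with 1 the strongest. In each replicate the strongest 6622 regions were used for comparison with the thresholded list. Read counts were not given, so the depth behind each rank is unknown.

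Thresholded summits lay in the windows of 8 of the 10 genes, all but ERR and tll. Among all protein-coding genes 42.9% had such a summit. Windows of the 10 genes ran over a range of lengths, and long windows hold summits more often. Of the genes with windows under 15 kb 4 of 6 had a summit, against 36.5% of all genes of that length. Of those with 15 to 30 kb it was 2 of 2, against 57.2%, and of those with 30 kb and over 2 of 2, against 73.5%. In the strongest regions of replicates 1, 2 and 3 a summit was found for 8, 8 and 7 of the 10 genes, against 45.9%, 45.1% and 47.7% of all protein-coding genes. ERR was among these genes in every replicate. The number per replicate was 7.67 ± 0.577 (SD, n = 3). By the narrower rule of a thresholded summit within 1 kb of one of the gene's own annotated transcription start sites (TSSs), 3 of the 10 were called, namely Hr96, Hr78 and eg, against 18.9% of all protein-coding genes. With a 2 kb flank in place of 5 kb 5 of the 10 had a summit, against 30.3% of all protein-coding genes, and in the gene body alone 2 had one, svp and knrl, against 12.5%.

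The windows held 14 thresholded summits in 207.1 kb, or 6.76 per 100 kb, against 4.93 per 100 kb over the genome. The 14 summits ranged in pooled rank from 566 to 6511, and their median was 4335.5, against 3311.5 for all thresholded peaks. The strongest regions of all 3 replicates covered 6 of the 14 (42.9%), against 71.8% of all thresholded peaks. Of the remaining 8, 4 were covered by 2 replicates, 3 by 1 and 1 by none. The 6 covered throughout lay at Hr96, dsf, Hr83, eg and knrl. Leaving out replicate 1, 2 or 3 and asking for cover by both others left 5, 5 and 6 genes with 6, 7 and 9 summits.

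Several of these summits lay at the start of another gene. The nearest protein-coding TSS was the receptor's own for 8 of the 14, and these 8 belonged to only 4 genes, Hr78, eg, kni and knrl. Within 500 bp of any annotated TSS lay 8 summits (57.1%, against 33.3% of all thresholded summits), in introns 3 (21.4%, against 44.1%) and between genes 3 (21.4%, against 20.0%).

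**Figure D1:**
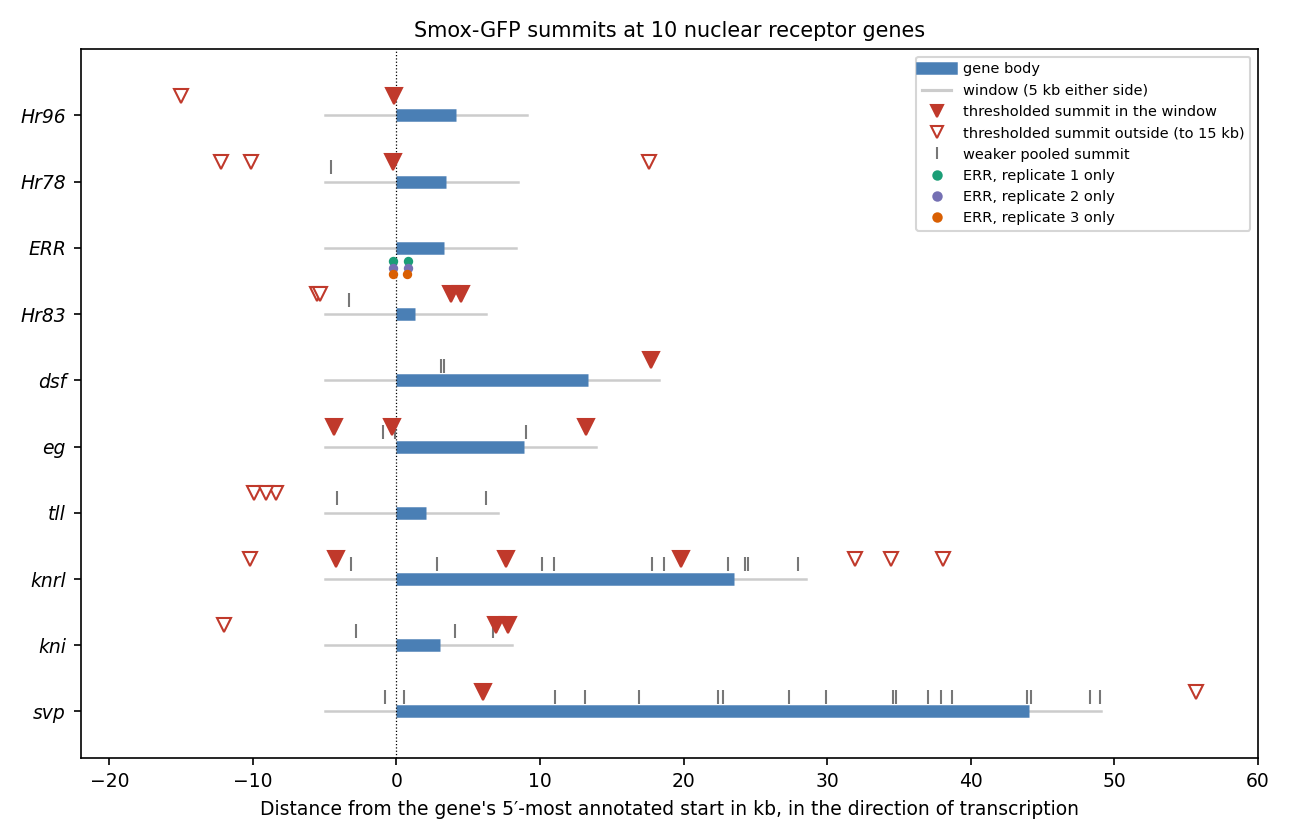
Position of Smox-GFP summits along the 10 genes. The x axis gives the distance in kb from the 5′-most annotated start in the direction of transcription, and each line is 1 gene. Filled triangles are the 14 thresholded summits in the windows, open triangles are thresholded summits up to 15 kb from the gene body, ticks are weaker pooled summits, and dots under ERR are summits of single replicates. The ERR line carries dots and no triangle, and the tll line has 3 open triangles upstream.

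Sequences around the strongest summits of the genes with a summit of their own, and around those at ERR and tll, are printed first because the results below turn on these places. Each is 151 bases of the plus strand of Release 6 (dm6), 5′ to 3′, with the summit in the middle, and windows that touch untranslated exon sequence are not shown. Capitals mark matches on either strand to any of 12 elements searched: the SMAD box GTCT, its palindrome GTCTAGAC, the GC-rich SMAD word GGCGCC, the nuclear receptor half-site AGGTCA, the TATA word TATAAA, the homeodomain word TAATTA, the early-embryo word CAGGTA, the GA repeat GAGAG, the AP-1 word TGACTCA, the DRE word TATCGATA, the promoter word GGTCACAC and the short word CGATA. TATCGATA contains CGATA, and GTCTAGAC contains GTCT.
Hr96, chr3R:25025019-25025169: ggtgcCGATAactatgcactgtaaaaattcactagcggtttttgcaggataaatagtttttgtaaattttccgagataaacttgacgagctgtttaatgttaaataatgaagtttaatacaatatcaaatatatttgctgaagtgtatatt
knrl intron, chr3L:20600790-20600940: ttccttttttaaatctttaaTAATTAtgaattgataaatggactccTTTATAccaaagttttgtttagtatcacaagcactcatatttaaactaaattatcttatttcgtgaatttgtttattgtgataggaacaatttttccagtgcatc
knrl upstream, chr3L:20624797-20624947: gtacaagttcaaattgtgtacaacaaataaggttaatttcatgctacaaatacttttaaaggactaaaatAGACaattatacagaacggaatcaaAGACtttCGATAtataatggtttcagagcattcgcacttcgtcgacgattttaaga
kni downstream, chr3L:20688359-20688509: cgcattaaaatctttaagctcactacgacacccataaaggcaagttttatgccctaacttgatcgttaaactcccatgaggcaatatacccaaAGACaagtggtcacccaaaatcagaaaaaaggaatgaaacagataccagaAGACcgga
eg, chr3L:21808296-21808446: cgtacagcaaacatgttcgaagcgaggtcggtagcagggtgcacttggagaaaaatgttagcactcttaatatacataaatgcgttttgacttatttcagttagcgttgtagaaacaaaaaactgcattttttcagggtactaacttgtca
tll upstream 1, chr3R:30843855-30844005: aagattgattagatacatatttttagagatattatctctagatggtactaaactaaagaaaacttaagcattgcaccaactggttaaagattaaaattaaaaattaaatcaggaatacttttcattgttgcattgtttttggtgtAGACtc
tll upstream 2, chr3R:30842354-30842504: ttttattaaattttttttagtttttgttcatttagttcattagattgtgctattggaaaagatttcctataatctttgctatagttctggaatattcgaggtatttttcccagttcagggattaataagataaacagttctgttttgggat
tll upstream 3, chr3R:30843167-30843317: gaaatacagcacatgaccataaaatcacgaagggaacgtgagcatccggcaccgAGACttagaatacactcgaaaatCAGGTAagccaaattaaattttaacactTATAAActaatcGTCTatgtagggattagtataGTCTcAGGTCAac
ERR internal start, replicate 1, chr3L:8185794-8185944: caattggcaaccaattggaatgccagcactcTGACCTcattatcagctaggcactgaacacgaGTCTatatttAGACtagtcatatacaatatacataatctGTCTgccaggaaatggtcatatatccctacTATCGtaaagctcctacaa

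The SMAD box GTCT, a 4-base word that occurs often by composition alone, was present in 7 of the 14 windows of 151 bp (50%), against 41.2% of all 6600 thresholded windows on the main chromosomes. In windows of the same size 500 bp to the left of the same summits it was also present in 7 of 14. Mean GC content was 33.6 ± 5.97% at the 14 summits and 44.7 ± 7.41% in the windows to the left (SD over 14 windows), and it averaged 33.3% at all thresholded summits. AGGTCA was in none of the 14, against 2.89% of all windows, and TATAAA was in 4 (28.6%), against 32.0%. GGCGCC was in 1 (7.14%), against 1.53%, and CGATA in 3 (21.4%), against 17.5%. TAATTA was in 1 (7.14%), against 14.8%, CAGGTA in none, against 2.88%, and GAGAG in none, against 14.6%. The SMAD palindrome, the AP-1 word, the DRE word and the promoter word were in none of the 14, against 0.0303%, 1.15%, 1.14% and 0.955% of all windows.

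Hr96, a receptor for lipid and toxin responses, had the strongest thresholded summit of the 10 genes. It ranked 566 in the pooled list and 687, 565 and 405 in replicates 1, 2 and 3 (552 ± 141; mean ± SD, n = 3), in the interval chr3R:25024939-25025272. The summit was 141 bp upstream of the only annotated Hr96 TSS and 77 bp upstream of the TSS of EMC6, a divergent gene for a subunit of a membrane-protein insertion complex, so the summit lay in a promoter shared by both. Its deposited −log10 q-value was 3.42, the top value of the pooled list, which was tied across regions. Among those with this value were the strongest summits of Hr83 and knrl and a summit outside the svp window with pooled rank 967. No other region of the pooled list fell in the Hr96 window.

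The knirps family held 8 of the 14 thresholded summits: 3 at eg, 2 at kni and 3 at knrl. Of protein-coding genes with a window length within 10% of eg's, 16.2% had as many or more. The same shares for kni and knrl were 18.1% and 36.2%. The strongest of the 8 summits lay in an intron of knrl, a gene close in sequence and position to kni, at chr3L:20600675-20601016. It ranked 721 in the pooled list and 827, 647 and 893 in replicates 1, 2 and 3 (789 ± 127; n = 3), and lay 19794 bp downstream of the knrl TSS, inside the 23519 bp gene body. A summit 4213 bp upstream of that TSS ranked 3609 in the pooled list and 4504, 2732 and 5773 in the replicates, and lay 381 bp upstream of the non-coding gene lncRNA:CR44684. A further intronic summit 7661 bp downstream of the TSS ranked 5592 in the pooled list and 5409, 5958 and 13636 in the replicates. All 3 replicates held the first 2 among their strongest regions, and replicate 3 did not hold the last.

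kni, a gap gene that also acts in wing veins and the tracheal system, had a different arrangement. Both of its summits lay downstream of the gene, 3896 and 4757 bp past its 3′ end and 861 bp apart. They ranked 3648 and 4997 in the pooled list. The stronger ranked 3525, 3402 and 6863 in replicates 1, 2 and 3, and the weaker ranked 3852, 7343 and 8683. Neither was among the strongest regions of all 3 replicates, and no thresholded summit lay within 1 kb of either kni TSS.

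eg, a receptor-like factor that sets the identity of certain neurons, had a thresholded summit 332 bp upstream of its first TSS. It ranked 4247 in the pooled list and 4990, 4387 and 3737 in replicates 1, 2 and 3, and was covered by all 3. A summit at the 3′ side, ranked 4424, lay 116 bp upstream of the TSS of CycH, which encodes cyclin H, a kinase partner; its replicate ranks were 3322, 5318 and 10506. The weakest, 4337 bp upstream of eg, ranked 6216 in the pooled list and 6911, 6701 and 6977 in the replicates, outside the strongest regions of each. The genes most like eg, by the same number of thresholded summits, a window length within 10% and the nearest rank of the strongest, were sktl (rank 4324), Tsp96F (4012) and CG5346 (4783), out of 56 candidates. For knrl they were Delta (748), lobo (836) and nej (839), out of 21 candidates.

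Hr78, Hr83 and dsf each had a summit, and 2 of these genes had it at a neighbour. The Hr78 summit lay 208 bp upstream of its first TSS and 165 bp into the antisense gene asRNA:CR43933, at chr3L:21497480-21497923, and ranked 6461 in the pooled list, close to the end of the thresholded list. It ranked 6823, 6676 and 4377 in replicates 1, 2 and 3, so only replicate 3 held it among its strongest regions. Replicates 2 and 3 also had a stronger region 3 and 34 bp downstream of an internal Hr78 TSS. These regions ranked 4994 and 3243, and the pooled list had no summit there. Both Hr83 summits lay at starts of Pak, a protein kinase gene, 326 and 110 bp upstream of different Pak TSSs. They were 749 bp apart, 4519 and 3770 bp downstream of the Hr83 TSS. The first ranked 1303 in the pooled list and 1142, 1587 and 1350 in the replicates (1360 ± 223; n = 3), and the second ranked 5123, with 4905, 9598 and 4360 in the replicates. The dsf summit lay 17726 bp downstream of the dsf TSS, past the gene's 3′ end and 20 bp inside the start of Gpdh1, the gene of glycerol-3-phosphate dehydrogenase. It ranked 1513 in the pooled list and 2459, 1282 and 1264 in the replicates.

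svp, the homolog of the vertebrate COUP-TF receptors, had the longest window, 54.0 kb, and the most pooled regions, 19, but 1 thresholded summit. The 165 protein-coding genes with windows within 10% of that length had a median of 2 thresholded summits and 13 pooled regions. The summit ranked 6511 in the pooled list and 5182, 13091 and 9855 in replicates 1, 2 and 3. It lay in an intron 6038 bp downstream of the first svp TSS, and only replicate 1 held it among its strongest regions. At the 2 neighbouring internal TSSs the pooled regions were weaker, with ranks of 18504 and 27838.

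ERR, the fly's estrogen-related receptor, had no region in the pooled list and none in the thresholded list, but regions in every replicate. At the divergent starts of ERR and Atg18a, an autophagy gene, each replicate had a region that ranked 1118, 1309 and 659 in replicates 1, 2 and 3 (1029 ± 334; n = 3). Its summit lay 217, 217 and 232 bp upstream of the first ERR TSS, and 31, 31 and 46 bp inside Atg18a. A further region lay 199, 214 and 231 bp upstream of an internal ERR TSS and ranked 3617, 3875 and 8187. The window printed above for this internal start held 3 GTCT matches and 1 match each to the nuclear receptor half-site and the short word CGATA. The regions of replicate 1 were chr3L:8186728-8186960 and chr3L:8185654-8186083. By the mean of these replicate ranks ERR stood after Hr96 and knrl and before the other genes. In replicate 3 it stood ahead of knrl, and in replicate 2 behind dsf.

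The pooled list had no summit over 47097 bp around ERR, between points 17895 bp upstream and 29202 bp downstream of its first TSS. Gaps at least that long made up 218 of 29972 gaps between neighbouring pooled summits, whose median was 1845 bp. Within the gap replicates 1, 2 and 3 held 4, 5 and 7 regions. Of the 4855 strong regions of replicate 1 that overlapped a strong region of each other replicate, 89 (1.83%) overlapped no pooled region. What left these places out of the pooled list was not tested.

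**Figure D2:**
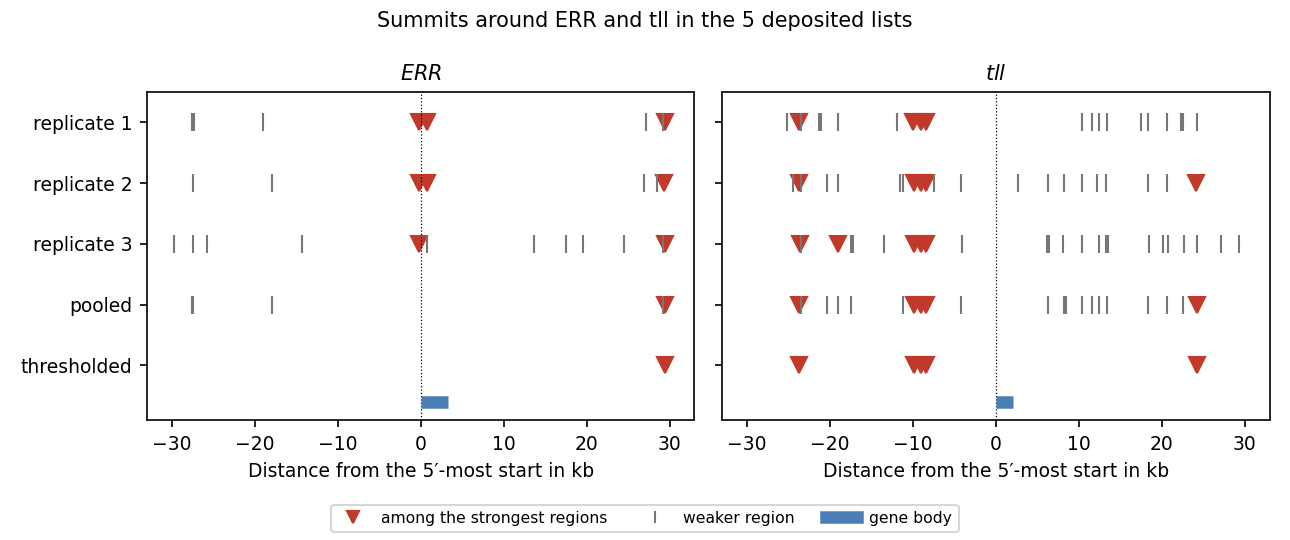
Summits within 30 kb of the 5′-most start of ERR and of tll in each deposited list. The x axis gives distance in kb in the direction of transcription, triangles are regions among the strongest 6622 of a list and ticks are weaker ones. The replicates have triangles at the start of ERR where the pooled and thresholded lists have none, and the 3 triangles 8 to 10 kb upstream of tll recur in all 5 lists.

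tll, the fly counterpart of vertebrate Tlx and a repressor in head and brain, had only weak regions in its window, with pooled ranks 12870 and 13155 and no region in replicate 1. Upstream of the window, 3 thresholded peaks lay 8385, 9073 and 9886 bp from the tll TSS, which was the nearest annotated TSS to each. Their pooled ranks were 1522, 4022 and 1834 in that order. In replicates 1, 2 and 3 the nearest ranked 1578, 1441 and 1810, the middle peak 3814, 6109 and 3102, and the farthest 2092, 2264 and 1646, so all 3 replicates held each among their strongest regions. The middle window held 3 GTCT matches, and 1 match each to the nuclear receptor half-site, the early-embryo word and the TATA word; the farthest held none of the 12 elements. With a 10 kb flank tll was therefore counted among the genes with a summit, and the number became 9 of 10, against 58.5% of all protein-coding genes.

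The strongest region in each window was taken in each replicate separately, so a gene's mean rank can join different places. For svp the ranks 5182, 7003 and 9814 came from different places. For eg replicate 1 gave the CycH summit, and for Hr78 replicates 2 and 3 gave the internal TSS. By this mean the genes stood as Hr96 (552), knrl (789), ERR (1029), Hr83 (1360), dsf (1668), eg (3815), kni (4597), Hr78 (5020) and svp (7333). tll was unplaced because replicate 1 had no region there. The replicate ranges of neighbours in this order overlapped except between dsf, at 1264 to 2459, and eg, at 3322 to 4387. Thus 5 genes formed a stronger set whose ranks were 2459 or better in every replicate, and 4 formed a weaker set. Within the stronger set, Hr83 and dsf were ranked by summits at their neighbours Pak and Gpdh1. Hr96 and ERR were ranked by starts shared with EMC6 and Atg18a, and knrl by a summit in its own intron.

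**Figure D3:**
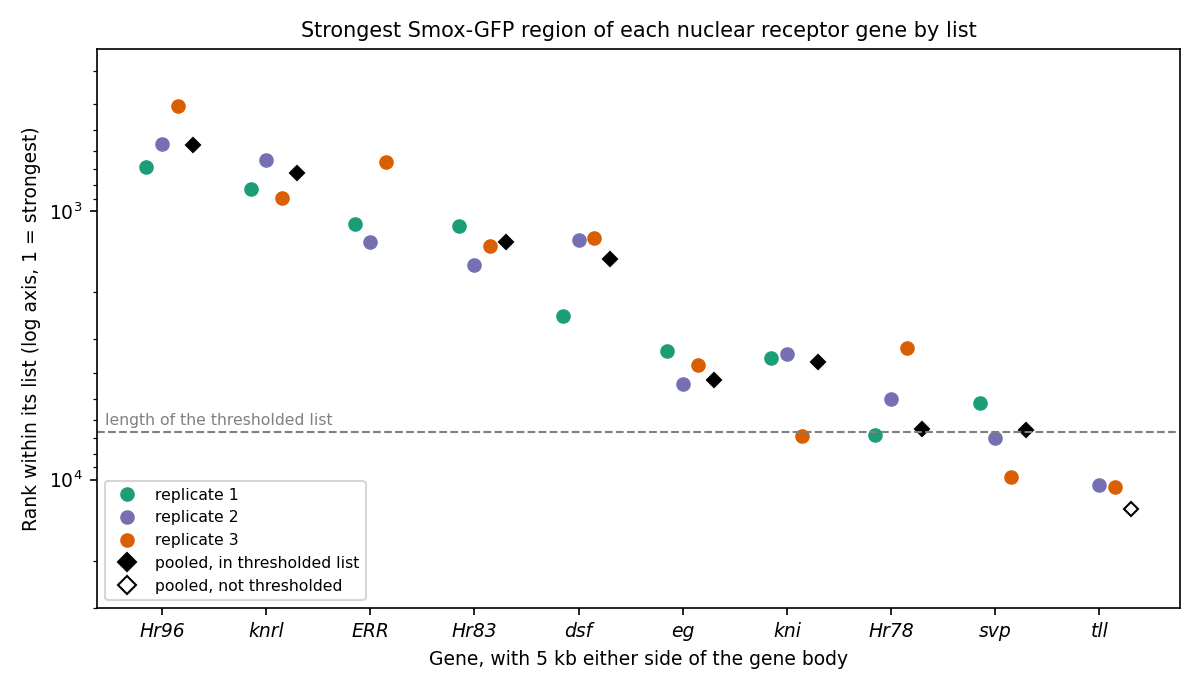
Rank of the strongest region in each gene's window, by list. The y axis is the rank on a log axis with the strongest at the top, circles are replicates 1 to 3, diamonds are the pooled list (filled where thresholded), and the dashed line marks rank 6622. Hr96 and knrl stand highest, ERR has circles and no diamond, and kni, Hr78, svp and tll reach past the dashed line in at least 1 list.

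Beside the other gene groups, the 10 receptors were less densely marked than the other 11 nuclear receptor genes, as a description and without a test of the difference. The 10 had 6.76 thresholded summits per 100 kb of window and 8 of 10 genes with a summit; the other 11, most of them in the ecdysone cascade and with longer windows (median 43.4 kb, against 13.8 kb for the 10), had 12.0 per 100 kb and 11 of 11. Of the 11, 9 had windows of 30 kb and over, where 73.5% of all protein-coding genes had a summit. The median pooled rank of the strongest summit was 2580.5 for the 8 receptors with one and 1373 for the 11, led by Eip75B (rank 13), Eip78C (52) and Hr4 (66), genes that ecdysone induces. For the Eip78C summit the nearest protein-coding TSS was that of CG43218.

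Genes linked to the 10 receptors were looked at in the same way. Of 12 coregulators of nuclear receptors 11 had a thresholded summit in the window, led by the corepressor gro (rank 207), the coactivator tai (251) and the corepressor Smr (315). Of 15 glycolysis and pentose phosphate genes, whose expression in the embryo depends on ERR, 10 had one, led by Gapdh2 (31), Zw (56) and Pgk (141), with a median rank of 226.5. Of 8 sterol and triglyceride genes known as Hr96 targets 2 had one, Npc2a (2433) and Npc2b (3368), and of 9 gap and head genes 4 had one, led by bcd (1362), cad (1658) and oc (5425). These counts stand beside 42.9% over all protein-coding genes, whose median window was 12.2 kb, and none was tested. The coregulators had a median window of 21.6 kb, and 57.2% of all genes with windows of 15 to 30 kb had a summit. Some of the named summits had another gene's protein-coding TSS nearest. These were Pgk (Bacc), Npc2a (Got2), bcd (Ama) and cad (Pomp).

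**Figure D4:**
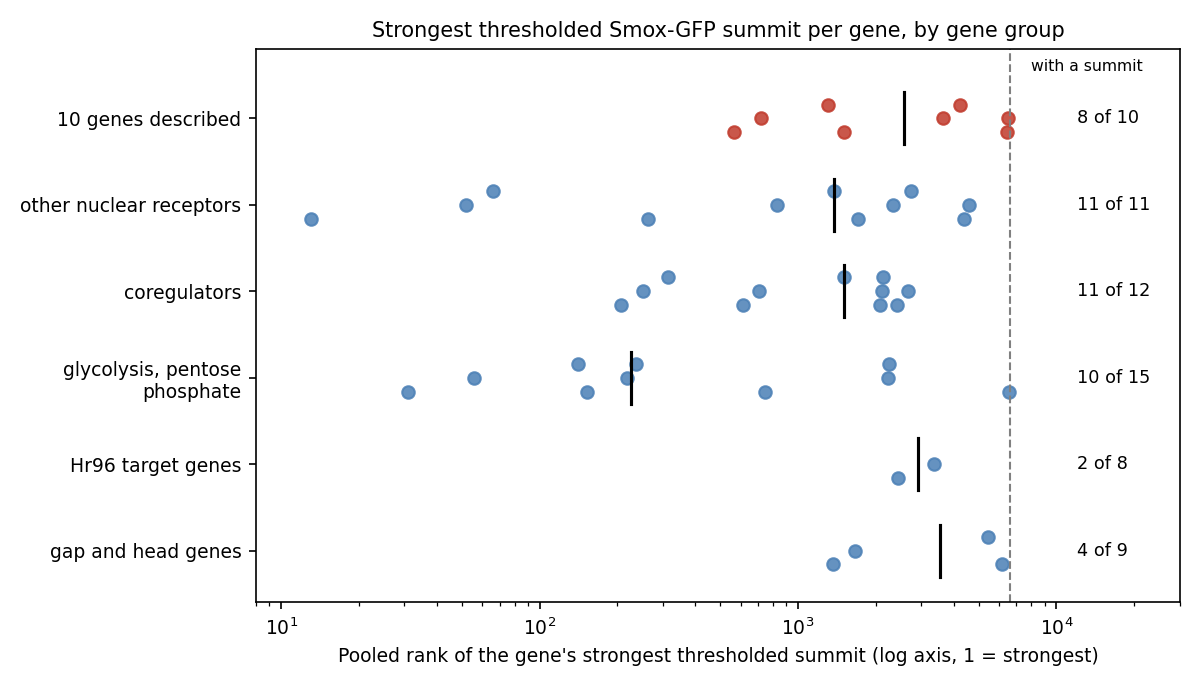
Pooled rank of the strongest thresholded summit per gene, on a log x axis, for the 10 receptors and 5 other gene groups. Each point is 1 gene with a summit, the black bar is the group's median, the numbers at the right give the genes with a summit, and the dashed line marks rank 6622. The 8 receptors with a summit lie between 566 and 6511, and the glycolysis and pentose phosphate genes reach 31.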

How the data were processed

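Smox-GFP ChIP-seq was measured in 3 replicates of 1 group. Per the labels, chromatin was sonicated to 200-800 bp. The authors deposited regions with a peak score of unstated scale, a −log10 q-value and a summit offset. Per the deposited file listings, 1 control alignment entered each call, and irreproducible discovery rate gave the thresholded list. Aligner, peak caller and cutoff are named nowhere (not given in the sources used here).

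Summits were placed on the Ensembl BDGP6 annotation of the dm6 sequence, on chromosomes 2L, 2R, 3L, 3R, 4 and X. Scores and q-values only ranked regions within a list. A peak was covered where a replicate's strongest 6622 regions overlapped it by 1 bp. The 10 genes always named, the other lists (their 3 best-ranked genes named), the elements and the alternatives were chosen with earlier results of these data known. Atro, Alien, Pyk and magro were matched through synonyms to Gug, alien, PyK and mag. Replicates 1 and 2 shared 292 intervals, none with the same score, and replicate 3 shared 0 with either. At Hr78, dsf and svp the regions of replicates 1 and 2 had a common width and those of replicate 3 another. The functions were tested on planted summits. Alternatives covered flank, TSS distance, ranking, overlap, replicate lists and leaving out each replicate.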

Additional observations from a re-analysis of the deposited data

How the results depend on the processing

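No paired analysis was possible because there is 1 group. The number of genes with a thresholded summit, 8 of 10, became 2 with the gene body only (svp and knrl), 5 with a 2 kb flank, 2 with the strongest 1000 peaks, 5 with peaks covered by all 3 replicates and 4 without peaks whose nearest protein-coding TSS is another gene's, an alternative chosen after seeing the data, as was the split by window length. The 14 summits became 3, 6, 2 and 6 under the first 4 of these. Leaving out each replicate kept the same thresholded peaks and asked for cover by both others, so counts could only fall or stay. It gave 5 to 6 genes, 6 to 9 summits and 2 genes within 1 kb of a TSS (1 with the strongest 1000 peaks). Of the summits kept, 66.7% to 85.7% lay within 500 bp of a TSS and 28.6% to 44.4% had GTCT. Both other replicates covered 42.9% to 64.3% of the 14. The median rank of 2667 to 3112.5 was taken from the ranks in both other replicates, not from pooled ranks. All 14 were covered (100%) when whole replicate lists were used. The median rank of 2580.5 became 2992 in replicate 1 and 1862 by −log10 q-value. In the ranking by q-value Hr96, Hr83 and knrl tied at rank 1, and eg was ranked by its CycH summit. The share within 500 bp of a TSS was 35.7% at 250 bp, and the share with GTCT was 64.3% with 150 bp either side. The other 11 nuclear receptor genes gave 9 of 11 with the gene body only and 11 otherwise. Of 32 alternative ranks of single genes, 19 moved by less than the replicate SD. Most of these alternatives were the same replicate ranks that gave that SD, so this count does not measure robustness. The cause of these shifts was not tested beyond the fewer peaks or shorter windows that the alternatives hold. With unknown depth, ranks past 6622 carry the least weight.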

Other observations

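Thresholded summits also lay beyond the windows. Between knrl and kni, 71.7 kb apart on chromosome 3L, there were 6 thresholded summits and 38 pooled regions. Of the 6, 3 lay in the windows of knrl and kni and 3 beyond them, with pooled ranks 1249, 3499 and 3829. The strongest had ranks of 1205, 1598 and 1114 in replicates 1, 2 and 3, and lay 28455 bp upstream of the knrl TSS, with CG13251 the nearest protein-coding TSS. Downstream of knrl, 8422, 10915 and 14576 bp from its gene body, 3 more ranked 5060, 5521 and 5874.

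Past the 3′ end of svp, 11652 bp from the gene body, a summit ranked 967 in the pooled list and 1343, 873 and 796 in replicates 1, 2 and 3, with CG4066 the nearest TSS at 3084 bp. The summit inside the svp window ranked 6511 in the pooled list. Upstream of kni, summits 12027 and 16244 bp from the nearest kni TSS ranked 5372 and 5725. The nearest annotated TSS to both was that of CG34260, at 6695 and 2478 bp.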
